A study of Mus musculus with 27 samples.

Results

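The microRNAs described here were the miR-466, miR-467 and miR-297 genes of the Sfmbt2 cluster, measured by small RNA sequencing in mouse embryonic stem (ES) cells. They were chosen by position and name, as every mature microRNA locus on the plus strand of chromosome 2 between positions 10388304 and 10439867 (mm9) whose name contains miR-466, miR-467 or miR-297. This gave 82 loci with 41 distinct names, of 2035 loci with 1900 names in the tables: 45 miR-466, 28 miR-467 and 9 miR-297 loci. The other 55 loci of the interval all belonged to miR-669. The study compared wild-type ES cells with Eed-/-, Ezh2-/- and Jarid2-/- ES cells. All were labelled with the strain CJ7, a mouse ES cell line, and all were kept in medium with serum and leukemia inhibitory factor, with no other treatment. The labels do not say how many clones of each mutant were used. They list 1 small RNA sample of Jarid2-/- and 2 of every other genotype, but every genotype has 1 deposited table with 1 count column, and whether samples were pooled in it is not stated. The column used as wild-type is named only for the CJ7 line. With 1 column per genotype, the spread between replicates is not known and no difference was tested. Where 4 values stand in a row without labels, their order is wild-type, Eed-/-, Ezh2-/-, Jarid2-/-. Intervals are exact 95% intervals for counting error only, and PCR reads are not independent molecules. Intervals of sums are too narrow wherever the same reads are counted at several loci.

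A microRNA is cut from a hairpin precursor that holds a mature sequence on its 5′ arm and another on its 3′ arm (5p and 3p). It finds its target messenger RNAs mainly through its seed, bases 2 to 8 from the 5′ end. Sfmbt2 encodes a Polycomb-family protein, is imprinted in the mouse, and carries this large repetitive microRNA cluster in an intron. Eed, Ezh2 and Jarid2 belong to Polycomb repressive complex 2 (PRC2), which places the repressive mark H3K27me3 on histone H3. Ezh2 is the methyltransferase, Eed binds the mark and is needed for activity, and Jarid2 is an accessory subunit that helps bring the complex to chromatin. All 42 miR-466, miR-467 and miR-297 genes that the RefSeq gene table (GRCm38) places on this chromosome lay inside Sfmbt2.

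The sequences that the results turn on follow as the deposited tables give them, 5′ to 3′, with the seed in capitals. The miR-466 3p arms come first because they carried most of the counts and hold a rare near-copy, miR-466o-3p.
miR-466b-3p: aUACAUACacgcacacauaaga
miR-466e-3p: uAUACAUAcacgcacacauaaga
miR-466d-3p: uAUACAUAcacgcacacauag
miR-466o-3p: uACAUACAugcacacauaagac
miR-466g: aUACAGACacaugcacacaca
The miR-467 arms are shown because closely similar 5p sequences differed in their ratios to wild-type. The outside gene miR-467h is shown beside them for comparison.
miR-467a-5p: uAAGUGCCugcauguauaugcg
miR-467c-5p: uAAGUGCGugcauguauaugug
miR-467d-5p: uAAGUGCGcgcauguauaugcg
miR-467e-5p: aUAAGUGUgagcauguauaugu
miR-467h: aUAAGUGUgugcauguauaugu
miR-467a-3p: cAUAUACAuacacacaccuaca
The main miR-297 product and a miR-466 5p arm complete the set. The second is letter for letter the sequence that the tables also list as miR-669m-5p.
miR-297c-3p: uAUACAUAcacacauacccaua
miR-466m-5p: uGUGUGCAugugcauguguguau

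The members had 35 distinct sequences of 19 to 24 bases and 22 seeds, of which 9 were shared by 2 or more names. The 15 distinct 3p sequences had a median of 77.3% A or C, and the 19 distinct 5p sequences a median of 68.2% G or U. The 1824 sequences outside the interval had a median of 54.5% G or U. The run ACAUACAC, searched on the strand of the mature RNA only, was in 16 of 41 member names (39.0%) and in 12 of 1859 other names (0.646%), 9 of those being miR-669 names. The seed AUACAUA joined 6 names of 2 families: miR-466a-3p, miR-466d-3p, miR-466e-3p, miR-297a-3p, miR-297b-3p and miR-297c-3p. It was also the seed of miR-669d-3p and of miR-467g, which lies outside the interval. The seed of miR-467a-5p, AAGUGCC, was also that of miR-290a-3p and miR-292-3p, products of the miR-290 cluster that is characteristic of mouse ES cells.

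The loci lay in repeats. Both arms were listed for 40 hairpins, and 13 miR-467 hairpins were followed 285 to 289 bases later by a miR-466 hairpin. In 11 of these 13 units a miR-669 locus came next. The median distance between neighbouring miR-467 hairpins was 2449 bases. Loci with the same sequence often held the same count to the read. All 10 loci of miR-467a-5p held 18577 counts in wild-type, and miR-467b-5p, whose sequence starts 1 base earlier and ends 2 bases earlier, held 18576. Loci with nearly equal counts in all 4 columns and at least 16 bases in common were therefore also joined into count groups, each used once. This gave 35 groups, 25 of them of 1 locus. A count at such a locus does not show which copy made the RNA, and sums over loci repeat it.

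**Figure D1:**
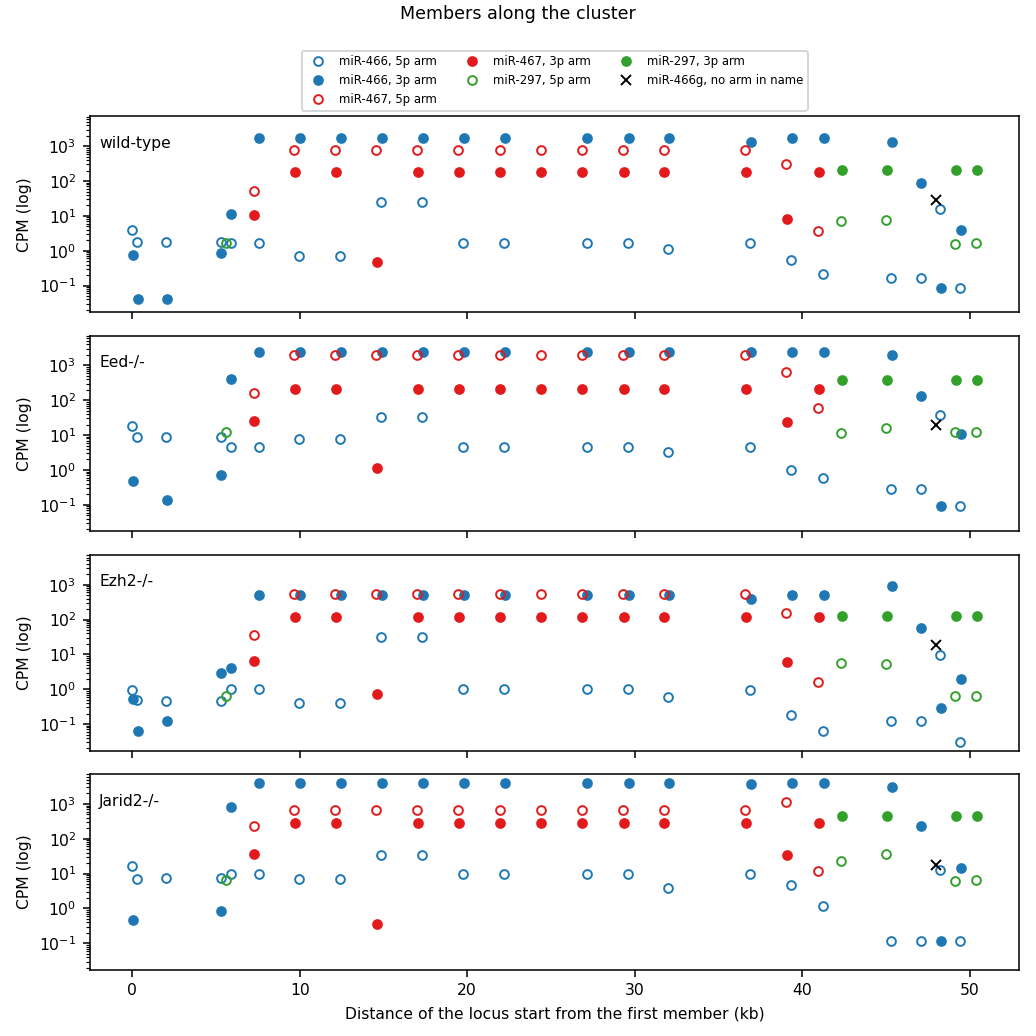
Level (CPM, microRNA counts scaled to a column total of 1000000, log axis) of each member locus against its distance in kb from the first member, in the 4 genotypes. Open circles are 5p arms, filled circles 3p arms and the cross is miR-466g; loci with 0 counts are not drawn. The rows of points at the same height through the middle of the cluster are copies with the same counts, such as the 10 loci of miR-467a-5p.

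The columns held 23793733, 42293019, 32074712 and 8485806 microRNA counts. Levels are given as CPM, the count scaled to a column total of 1000000. A count of 0 allowed a level of up to 0.126, 0.0709, 0.0935 and 0.354 CPM in these columns. Of the 82 members, 82, 81, 82 and 80 were detected. The ES cell markers, mainly the miR-290 cluster, summed to 322021 CPM (Jarid2-/-) to 374258 CPM (wild-type), with all 20 of their loci detected in every column. Markers of other cells were present at lower levels and differed between columns. The 16 loci of the fibroblast and feeder list, of which 16, 16, 14 and 15 were detected, summed to 9501, 16371, 5930 and 6803 CPM, mostly miR-21a-5p. The epithelial marker miR-205-5p stood at 1554, 1011, 147 and 4088 CPM. With column totals both were lowest in Ezh2-/-, as were 23 of the 26 member count groups compared below. With TMM factors, a scaling described with the Ezh2-/- results, Ezh2-/- was lowest in 13 of the 26. The marker levels were not computed with that scaling. The neural list (596 to 5434 CPM), the blood list (2909 to 9475 CPM) and the endoderm list (416 to 1481 CPM) were highest in Ezh2-/-, and the first and second of these lowest in Jarid2-/-. The endothelial list ran from 325 CPM in Jarid2-/- to 805 CPM in Eed-/-. The muscle list ran from 6.72 CPM in Jarid2-/- to 40.3 CPM in Eed-/-. The part of these cells in the results was not tested. In cultures read as a whole, fewer cells of a type and less RNA per cell cannot be told apart.

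The members took a larger share of the microRNA counts in Eed-/- and Jarid2-/- than in wild-type, and a smaller share in Ezh2-/-. With each count group used once, they made up 0.616%, 1.09%, 0.294% and 1.49% of the counts. Against wild-type this was 1.78-fold higher in Eed-/- (1.77 to 1.79), 2.09-fold lower in Ezh2-/- (2.08 to 2.11) and 2.42-fold higher in Jarid2-/- (2.41 to 2.44). The value in Ezh2-/- depended on the scaling: TMM factors, described with the Ezh2-/- results, raise every fold of Ezh2-/- over wild-type by 1.66 times, and the sum was then 1.26-fold lower. The column totals under these count group shares still count every copy. With each name counted once in the sum and in the total, the members made up 1.58%, 2.58%, 0.665% and 3.54%. Summed over all 82 loci, copies included, the shares were 3.52%, 6.07%, 1.56% and 6.99%. Those folds were 1.72-fold higher, 2.25-fold lower and 1.98-fold higher. The count groups still hold a further miR-466b-3p locus whose reads may be those of its copies. That locus made up 22.0%, 21.6%, 13.6% and 25.7% of the count group sum, and the sum without it was not computed. It is also in the count group sums of miR-466 and of the 3p arms given below. The printed intervals do not cover this. Between mutants, the count group sum in Jarid2-/- was 1.36-fold that in Eed-/- (1.36 to 1.37) and 5.07-fold that in Ezh2-/- (5.03 to 5.11), and in Eed-/- it was 3.72-fold that in Ezh2-/- (3.69 to 3.74). With TMM factors these were 1.46-fold, 3.00-fold and 2.06-fold. In the sum over loci, copies included, the order of Jarid2-/- and Eed-/- turned with the processing. Without the 12 loci of the shared miR-466 3p sequence, the sum over loci was 2.12-fold that of wild-type in Eed-/- and 1.501-fold in Jarid2-/-, and with the deposited reads-per-million (RPM) denominators it was 2.82-fold and 2.80-fold. The 3 mutant comparisons share the wild-type column, so they are not independent of each other.

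Among the 26 count groups with at least 50 counts in some column, the order Jarid2-/- above Eed-/- above wild-type above Ezh2-/- was held by 16. Ezh2-/- was the lowest column in 23 of the 26 and Jarid2-/- the highest in 17. Eed-/- was the highest in 7, among them miR-467a-5p, miR-467d-5p and miR-297a-5p. The bottom of this order rests on the scaling: with TMM factors, described with the Ezh2-/- results, Ezh2-/- was lowest in 13 of the 26 and wild-type in 9, while Jarid2-/- was highest in 16. The order within a member did not always exceed counting error, as the values of miR-466c-5p below show.

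**Figure D2:**
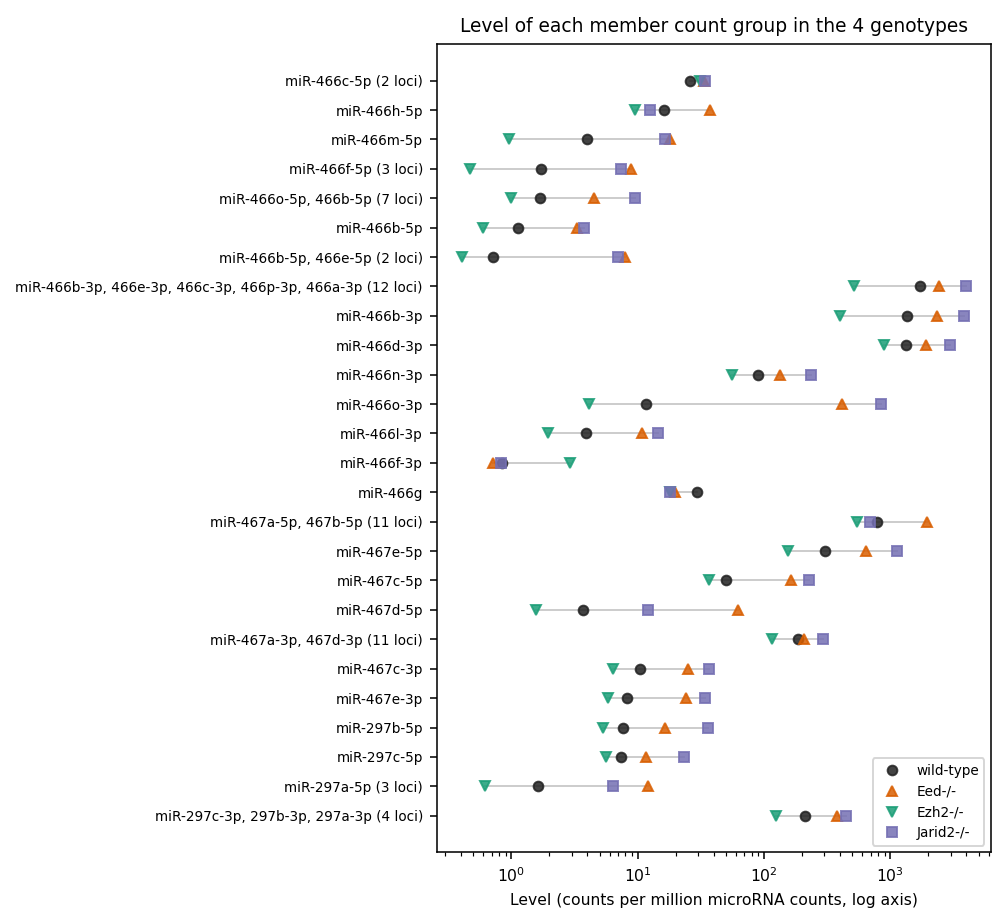
Level (CPM, log axis) of the 26 member count groups with at least 50 counts in some column, 1 row per group and 1 symbol per genotype, with a grey line from the lowest to the highest. With the column totals used here the Ezh2-/- symbol is leftmost in 23 rows (13 with TMM factors), and the row of miR-466o-3p spans the widest range, 4.15 to 843 CPM.

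In Eed-/- cells, 78 of the 82 loci had at least 10 counts in Eed-/- or wild-type, and 37 of them were at least 2-fold higher on the log2(CPM + 1) scale while 0 were at least 2-fold lower. Over all 1096 loci of the tables that passed the same minimum, 17.5% were higher and 15.0% lower by that much. The members' median log2 ratio was 0.85 and that of all loci 0.08. Per distinct name, 17 of 39 were higher and 0 lower, against 15.3% and 16.3% of all names. Per count group, 16 of 31 were higher and 0 lower. The 5p arms held most of these: 12 of 17 tested 5p count groups were at least 2-fold higher, against 4 of 13 3p groups. Summed once per count group, the 5p arms were 2.47-fold higher (2.43 to 2.50) and the 3p arms 1.61-fold (1.60 to 1.62).

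In Ezh2-/- cells, 15 of 75 tested loci were at least 2-fold lower and 1 was higher. Over all 1000 tested loci 24.5% were lower and 4.9% higher, so the members' share of lower calls was near that of the tables as a whole. The members' median log2 ratio was -0.67 and that of all loci -0.44. Of the 15 lower loci, 13 were miR-466 3p arms with shared reads, and the rest were miR-466o-3p and miR-466m-5p. Per distinct name 7 of 36 were lower and 0 higher, against 25.6% and 5.2% of all names, and per count group 4 of 29 were lower and 1 higher. These values moved with the scaling. With TMM factors, which assume that most loci do not change, the median over all loci became 0.09 and that of the members -0.014, and 3 member loci were at least 2-fold lower. Over all loci that scaling called 144 higher and 163 lower, against 49 and 245 with column totals. The members' median less that of all loci was -0.23 with column totals and between -0.09 and -0.21 with the other scalings. The summed miR-467 count groups were 1.55-fold lower with column totals (1.53 to 1.58) and 1.07-fold higher with TMM factors, so a direction for that family in Ezh2-/- cannot be given apart from the scaling. The same held for miR-297, whose sum was 1.66-fold lower (1.60 to 1.73) with column totals but 0.997 times that of wild-type (0.958 to 1.04) with TMM factors. The miR-466 sum was lower with both, by 2.37-fold (2.34 to 2.39) and 1.43-fold (1.41 to 1.44).

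In Jarid2-/- cells, 46 of 76 tested loci were at least 2-fold higher and 0 lower, against 16.3% higher and 22.8% lower over all 950 tested loci. The members' median log2 ratio was 1.22 and that of all loci -0.17. Per distinct name 26 of 36 were higher and 0 lower, against 15.1% and 24.8% of all names, and per count group 21 of 30 were higher and 0 lower. Both arms took part, with 12 of 16 5p groups and 9 of 13 3p groups at least 2-fold higher. By family, 32 of 39 tested miR-466 loci, 9 of 9 miR-297 loci and 5 of 28 miR-467 loci were at least 2-fold higher. The miR-467 loci are mostly copies of miR-467a, and 5 of its 10 distinct names and 5 of its 8 count groups were higher. This column was the shallowest, and with the other columns thinned to its total the count of higher loci was again 46.

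**Figure D3:**
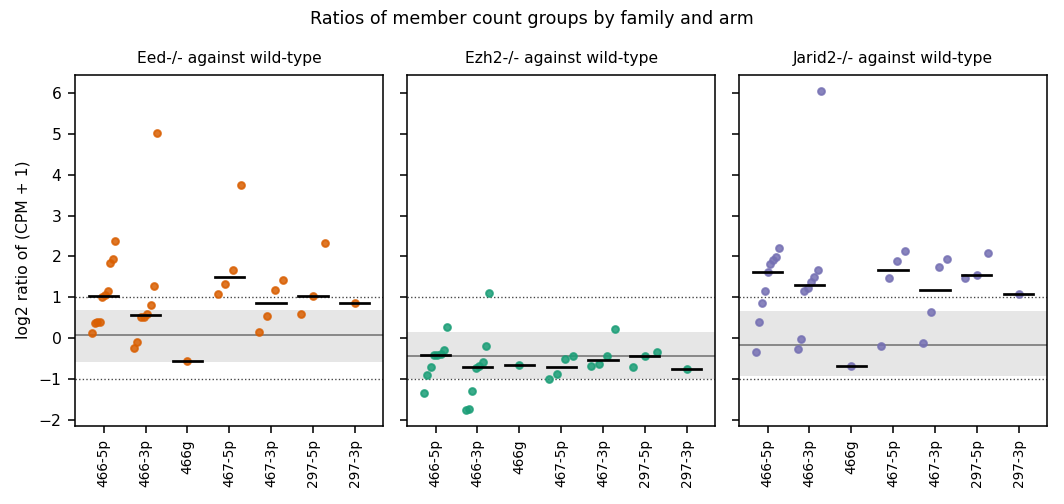
log2 ratio of (CPM + 1) of each tested member count group against wild-type, by family and arm, in the 3 mutants. Black bars are medians of a family and arm; the grey line and band are the median and the middle 50% of all tested loci (median 0.08, -0.44 and -0.17), and dotted lines mark 2-fold. Most members lie above the band in Jarid2-/-, and the 2 highest points of the figure are miR-466o-3p at 6.06 and 5.02.

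The miR-466 3p arms were the most abundant products. The sequence shared by miR-466b-3p, miR-466c-3p and miR-466p-3p, with the longer miR-466e-3p and miR-466a-3p, gave 12 loci with nearly the same counts. Its mean count over these loci was 40526, 103440, 16481 and 33690, or 1703, 2446, 514 and 3970 CPM. Against wild-type it was 1.44-fold higher in Eed-/- (1.42 to 1.45), 3.31-fold lower in Ezh2-/- (2.00-fold with TMM factors) and 2.33-fold higher in Jarid2-/- (2.30 to 2.36). It made up 27.7% of the count group sum in wild-type and 17.5% in Ezh2-/-. A further locus of miR-466b-3p, at chr2:10425242-10425263, held fewer counts than the rest although its mature sequence is the same, at 32187, 99680, 12832 and 32583.

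A change of 1 base, together with different ends, set miR-466d-3p apart from miR-466b-3p. Counted from the 5′ end of miR-466b-3p, the change was A20G over 20 shared positions, outside the seed. Because miR-466d-3p starts 1 base earlier, its seed is AUACAUA and not UACAUAC. miR-466d-3p had 31831, 81641, 28714 and 25198 counts. In wild-type, in Jarid2-/- and in Eed-/- this was 75.1% to 80.6% of the miR-466b-3p count (the mean of its 8 loci), but in Ezh2-/- it was 179%. A ratio within a column does not depend on the scaling. Against wild-type, miR-466d-3p in Ezh2-/- was 1.49-fold lower with column totals and 1.11-fold higher with TMM factors.

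The rare near-copy miR-466o-3p, at chr2:10394216-10394237, had the widest range of all members with at least 50 counts. It held 278, 17398, 133 and 7156 counts, or 11.7, 411, 4.15 and 843 CPM. It was high in Eed-/- and Jarid2-/- and low in wild-type and Ezh2-/-. Against wild-type it was 35.2-fold higher in Eed-/- (31.3 to 39.8), 2.82-fold lower in Ezh2-/- (1.70-fold with TMM factors) and 72.2-fold higher in Jarid2-/- (64.0 to 81.7). Its sequence differs from miR-466b-3p by C10U over 21 shared positions, counted from the 5′ end of miR-466b-3p. Because it starts 1 base later, its seed is ACAUACA and not UACAUAC. Its count was 0.704%, 16.9%, 0.830% and 21.3% of that of miR-466b-3p. Whether reads of one are counted as the other through mismatches was not tested. The 5p arm of the same hairpin, miR-466o-5p, shares its sequence with miR-466b-5p and had 40, 192, 32 and 81 counts.

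**Figure D4:**
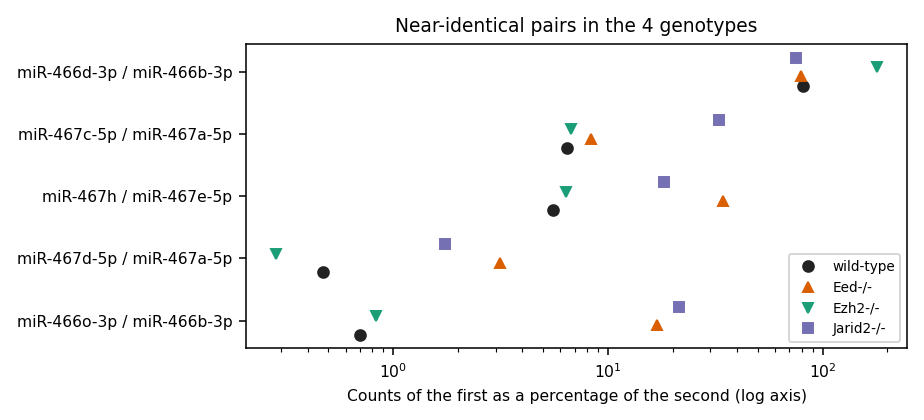
Counts of the first microRNA of each near-identical pair as a percentage of the second (log axis), in the 4 genotypes. The share of miR-466o-3p is 0.704% and 0.830% in wild-type and Ezh2-/- but 16.9% and 21.3% in Eed-/- and Jarid2-/-, and miR-466d-3p exceeds miR-466b-3p only in Ezh2-/-.

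Other miR-466 members were less abundant and not uniform. miR-466n-3p, with 2141, 5710, 1775 and 2005 counts, had log2 ratios of 0.58, -0.69 and 1.38, the second of which turned with TMM factors (1.02-fold higher). miR-466l-3p held 93, 457, 63 and 124 counts and was 2.76-fold higher in Eed-/- (2.21 to 3.49) and 3.74-fold higher in Jarid2-/- (2.83 to 4.95). miR-466g had 698, 835, 580 and 152 counts and log2 ratios of -0.55, -0.67 and -0.68, which made wild-type its highest column. With RPM denominators its ratio in Eed-/- was 0.11, and with TMM factors that in Ezh2-/- was 0.03. miR-466h-5p was 2.31-fold higher in Eed-/- (2.07 to 2.59) but stood at 12.6 CPM in Jarid2-/- against 16.1 in wild-type, a difference whose sign turned with RPM denominators (log2 ratio 0.09). Of the 26 count groups drawn by level, miR-466c-5p differed least with column totals, at 25.8, 33.6, 31.1 and 33.9 CPM. Its folds in Eed-/- and Jarid2-/- had overlapping intervals, 1.19 to 1.44 and 1.14 to 1.52. With TMM factors it was 2.00-fold higher in Ezh2-/- than in wild-type, so this ranking rests on the scaling.

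Low counts limit the rest of the family. The 3 copies of miR-466f-3p held 1, 1 and 20 counts in wild-type, and the third held 94 in Ezh2-/-, which made it the only member called higher there. It was chosen for mention after its values were seen. miR-466m-5p held 94, 762, 31 and 139 counts, and was 4.56-fold higher in Eed-/- and 4.09-fold lower in Ezh2-/- (2.47-fold with TMM factors). The identical sequence listed as miR-669m-5p held 17242, 52284, 6932 and 10098 counts at its first locus, so these counts do not follow from the mature sequence alone.

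Among the miR-467 members the most abundant 5p arm and the others differed in Jarid2-/-. miR-467a-5p had 18577, 82769, 17543 and 5844 counts, or 781, 1957, 547 and 689 CPM. It was 2.51-fold higher in Eed-/- (2.47 to 2.55), 1.43-fold lower in Ezh2-/- and 1.13-fold lower in Jarid2-/-. Its log2 ratio in Ezh2-/- was 0.21 with TMM factors, and that in Jarid2-/- was 0.31 with RPM denominators, so the direction of both rests on the scaling. miR-467e-5p had 7284, 27321, 4931 and 9562 counts, and was 3.68-fold higher in Jarid2-/- (3.57 to 3.80). miR-467c-5p had 1197, 6881, 1186 and 1915 counts, and was 4.49-fold higher in Jarid2-/- (4.17 to 4.83). From miR-467a-5p it differs by C8G and C21U, counted from the 5′ end of miR-467a-5p, and the first of these lies in the seed. The counting-error intervals of miR-467a-5p and miR-467c-5p in Jarid2-/- did not overlap, but the spread between replicates is not known. Because miR-467a-5p is listed at 10 loci, the summed fold of the family in Jarid2-/- was 1.11 over loci, 1.47 over names and 1.79 over count groups.

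miR-467d-5p was the member with the second highest ratio in Eed-/-. It held 88, 2609, 50 and 102 counts, or 61.7 CPM in Eed-/- against 3.70 in wild-type. It was 16.7-fold higher in Eed-/- (13.5 to 20.9) and 3.25-fold higher in Jarid2-/- (2.42 to 4.37). It differs from miR-467a-5p by C8G and U9C. Its 3p partner, miR-467d-3p, holds the same counts as miR-467a-3p at 4427, 8808, 3726 and 2470, so its own level cannot be read from the tables. miR-467c-3p and miR-467e-3p, each with 197 or more counts in wild-type, were 3.54-fold and 4.16-fold higher in Jarid2-/-.

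The miR-297 members had a common 3p product. miR-297a-3p, miR-297b-3p and miR-297c-3p share a sequence, and their group had mean counts of 5012, 16102, 4016 and 3796, or 211, 381, 125 and 447 CPM. It was 1.81-fold higher in Eed-/- (1.75 to 1.87), 1.68-fold lower in Ezh2-/- with column totals (1.02-fold with TMM factors) and 2.12-fold higher in Jarid2-/- (2.04 to 2.22). The 5p arms differed in sequence and in ratio. miR-297b-5p held 181, 698, 171 and 303 counts and was 4.69-fold higher in Jarid2-/- (3.89 to 5.67). miR-297a-5p, with 39, 515, 20 and 54 counts as the mean of its 3 loci, was 7.43-fold higher in Eed-/- (5.36 to 10.6) and 3.88-fold higher in Jarid2-/- (2.52 to 6.02).

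Arm use differed between the families over the listed hairpins. The 3p arm held more counts than the 5p arm in 17 of 22 miR-466 hairpins and 4 of 4 miR-297 hairpins in wild-type, but in 1 of 14 miR-467 hairpins. The same tallies were found in Eed-/- and Jarid2-/-, and in Ezh2-/- it was 18 of 22 for miR-466. Copies are tallied separately: 10 of the 14 miR-467 hairpins were miR-467a copies with the same counts. Of the 22 miR-466 hairpins, 12 held the shared 3p counts. The 1 miR-467 hairpin with more 3p counts was miR-467d, whose 3p counts are those of miR-467a-3p. For miR-467a the 3p share was 19.2%, 9.62%, 17.5% and 29.7%, and for miR-466o it was 87.4%, 98.9%, 80.6% and 98.9%. Since the arms of a copied hairpin can each take reads from other copies, these shares describe the listed loci and not single hairpins.

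**Figure D5:**
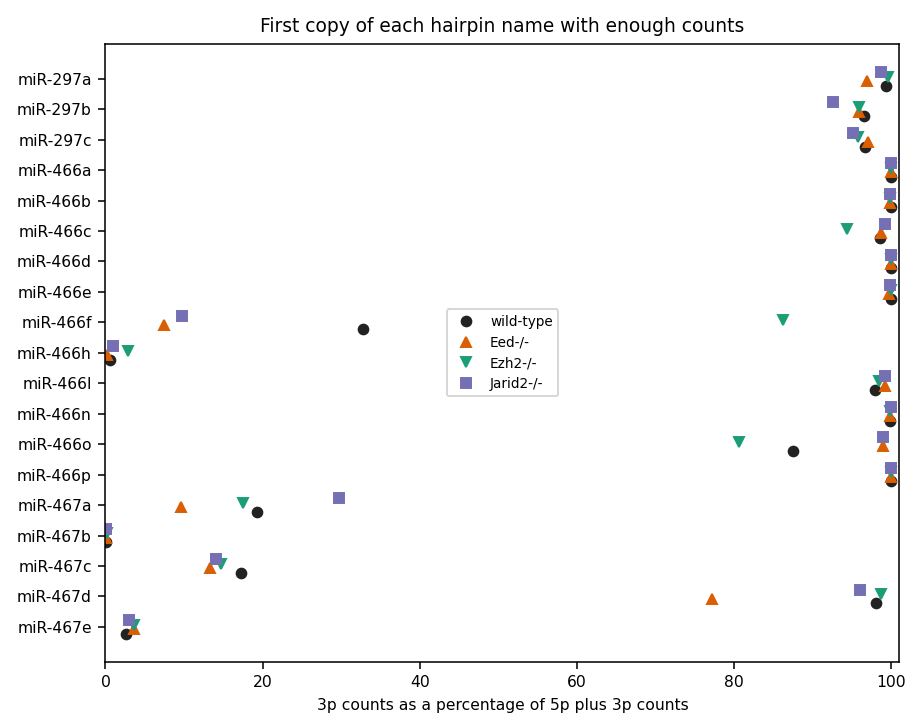
Counts of the 3p arm as a percentage of both arms (horizontal axis) for 19 hairpin names, each shown by its first copy with at least 50 counts in every genotype. miR-466 and miR-297 names lie mostly near 100, and miR-467a runs from 9.62% in Eed-/- to 29.7% in Jarid2-/-.

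The neighbouring miR-669 loci of the interval also had higher sums in Eed-/- and Jarid2-/-. Per distinct name their sum was 1.95-fold higher in Eed-/- (1.94 to 1.96), 1.53-fold lower in Ezh2-/- (1.09-fold higher with TMM factors) and 1.55-fold higher in Jarid2-/- (1.54 to 1.57). Per distinct name the members were 1.64-fold higher in Eed-/- (1.63 to 1.65), 2.36-fold lower in Ezh2-/- (1.42-fold lower with TMM factors) and 2.22-fold higher in Jarid2-/- (2.21 to 2.24). With 1 column per genotype, the difference between the 2 sets was not tested.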

How the data were processed

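SOLiD small RNA libraries were made from RNA of 18 to 40 nt, per the labels' protocols. Cutadapt, Bowtie and mm9 come from the submitters' processing notes, and miRBase release 20 is the annotation per the file headers. Tool versions and how multiply matching reads were counted are not stated there. The deposited tables give a count and an RPM value for each mature locus. CPM over column totals and log2 ratios (pseudocount 1 CPM) were computed from the deposited counts. A locus was tested if either column held 10 counts or more, and called at 2-fold. Fold intervals are exact conditional binomial, and the floor is 3 counts.

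Members and lists were chosen with earlier results of these data known. Count groups (counts within 5% or 5, 16 shared bases), near-copy pairs, searched sequence runs and repeat spacing were chosen after the counts were seen. Named members were, per distinct name, the 5 most abundant per family, miR-466o-3p and miR-466b-3p, the 5 highest and 5 lowest ratios per mutant among names with at least 50 counts, and other arms of named hairpins. A further 5 names were added after their values were seen: miR-466n-3p, miR-466l-3p, miR-466d-3p, miR-466f-3p and miR-467h. Size factors came from edgeR 4.0.16 (TMM) and DESeq2 1.42.0 (median ratio), used for scaling only. The calling step was checked on simulated data.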

Additional observations from a re-analysis of the deposited data

How the results depend on the processing

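The summed level of all members, their median and the balance of their calls kept their direction in each mutant under the alternatives run, but values moved, and the cause was not tested. In Ezh2-/-, TMM factors turned the count group sums of miR-467 (1.07) and of the 5p arms (1.09). They left that of miR-297 at 0.997. The order of the Jarid2-/- and Eed-/- sums over loci turned under several settings. Folds and sums are over wild-type, and folds between mutants under a setting are their quotients. With TMM factors the median and sum were 0.73 and 1.58 in Eed-/-, -0.014 and 0.736 in Ezh2-/- with 3 lower calls, and the Jarid2-/- sum was 1.95. With median-ratio size factors they were 0.63 and 1.48, -0.16 and 0.635, and 1.10 and 1.82. With RPM denominators they were 1.23 and 2.82, -0.14 and 0.604 with 0 higher calls, and 1.10 and 2.80. Rescaled after values were seen, these denominators gave medians of 1.54, -0.23 and 1.72, sums of 2.82, 0.604 and 2.80, and 59 higher calls in Eed-/-. Over all loci the rescaled denominators called 350 higher in Eed-/-, against 192 with column totals. The Eed-/- median over all loci was 0.46 with them and 0.08 with column totals. With totals outside 3 clusters the Eed-/- median was 1.04 and the sums 1.96, 0.434 and 1.94. The scaling moved the median over all loci, which in Ezh2-/- was -0.44 with column totals, -0.07 with median-ratio factors and -0.55 outside 3 clusters.

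At 100 counts or more, medians were 1.02 in Eed-/- and 1.08 in Jarid2-/-, with 29 higher calls in Jarid2-/- and 0 in Ezh2-/-. A pseudocount of 0.1 gave a median of 0.97 in Eed-/- and 23 lower calls in Ezh2-/-. A pseudocount of 10 gave medians of 0.52, -0.51 and 0.64 and 16, 0 and 25 higher calls. Per name, higher calls were 17, 0 and 26, lower calls in Ezh2-/- 7, and sums 1.64, 0.424 and 2.22. Names with a single locus gave 13, 0 and 20 higher calls, 5 lower in Ezh2-/-, sums of 1.64, 0.436 and 2.31, and a Jarid2-/- median of 1.38. Per hairpin name there were 9, 0 and 16 higher calls and 7 lower in Ezh2-/-. For the changed minimum, the pseudocounts, single-locus names and hairpin names, calls over all loci were not computed. Without the most abundant name the sums were 1.75, 0.459 and 1.95.

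The following were added after seeing the data. Count groups gave 16 and 21 higher calls in Eed-/- and Jarid2-/-, 4 lower in Ezh2-/-, medians of 1.01 and 1.48, and sums of 1.78, 0.478 and 2.42. At a tolerance of 1% or 1 count they gave 18, 23 and 4 calls, medians of 1.02 and 1.49, and sums of 1.78, 0.478 and 2.42. Without the shared miR-466 3p counts, medians were 1.05, -0.58 and 1.08, sums 2.12, 0.640 and 1.501, and 3 loci were lower in Ezh2-/-. Totals once per name gave sums of 1.72, 0.442 and 2.00. Thinned to the Jarid2-/- total, 0 loci were higher in Ezh2-/-. Of 624 alternative values of named members, 557 kept their side of the 2-fold threshold, 38 lost a call and 29 gained 1. Ratios under that threshold changed sign with the scaling for several members, as for miR-467a-5p and miR-466g. No paired analysis was possible because each genotype has 1 count column, which carries no replicate number that could pair it with another. Counts limit the members under 50 counts, and the Jarid2-/- column is the shallowest.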

Other observations

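The same families also had 10 loci outside the interval, which summed to 10.0-fold the wild-type level in Eed-/- (9.20 to 10.9) and 9.20-fold in Jarid2-/- (8.38 to 10.1). In Ezh2-/- the sum was 1.48-fold lower (1.32 to 1.67) with column totals and 1.12-fold higher with TMM factors. Most of these counts were miR-467h, on chr9:115291016-115291037 (mm9, plus strand), which held 406, 9382, 316 and 1751 counts in wild-type, Eed-/-, Ezh2-/- and Jarid2-/-. Its log2 ratios were 3.62, -0.74 and 3.52. It differs from miR-467e-5p by A10U, counted from the 5′ end of miR-467e-5p, and held 5.57%, 34.3%, 6.41% and 18.3% of that count. Like miR-466o-3p, it stood at a far higher share of its near-copy in Eed-/- and Jarid2-/- than in the other genotypes. By contrast miR-466k, also outside the interval, held 111, 290, 183 and 57 counts, with log2 ratios of 0.47, 0.24 and 0.45.

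Loci of 1 mature sequence did not always hold 1 count. The 8 loci of miR-466b-5p held 17 to 40 counts in wild-type and 140 to 334 in Eed-/-. A locus was lower than most in wild-type, at 17 counts against 40, and higher in Eed-/-, at 334 against 192. Its counts, 17, 334, 13 and 59 in the 4 columns, were those of miR-466e-5p, whose sequence starts 1 base later.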
